A study of Mus musculus with 12 samples.

Results

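The comparison described here sets the livers of the kinase-dead genotype against sham livers: 3 libraries labelled RIPK1 D138N and 3 labelled Sham, taken from 12 libraries in all. All 53796 genes of the deposited table were available, and the 11728 with at least 1 FPKM (fragments per kilobase of transcript, scaled to library depth, so a level per length) in at least 3 libraries were tested. The Sham libraries came from genotype WT, and the WT libraries, also 3, came from the same genotype without a sham label. The 3 TNFR1/2 KO libraries entered only the estimate of the spread. The sources used here name no ischemia label on single samples, so it is the title and design of the series that place the mutant and WT groups after ischemia. They give neither the ischemia time, the strain, the age nor the sex, and they do not say whether repeats are separate animals, so the p-values measure the spread between these samples. No sham library of the mutant genotype was analysed here. A difference between mutant liver and Sham therefore joins genotype and ischemia, and these cannot be told apart.

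RIPK1 is a kinase that sits below the TNF receptors and passes their signal either to NF-κB and survival or to caspase-8 and the RIPK3 to MLKL route of cell death. Its kinase activity is needed for the death arm, while its scaffold function carries the survival signal. D138N is a known substitution that removes the kinase activity and leaves the protein in place. In liver, an interruption of blood flow is known to start an early stress programme of immediate early genes, chemokines and hypoxia genes.

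The libraries summed to 649373 to 750501 FPKM in Sham and 489348 to 518580 FPKM in the mutant, and 10135 to 10558 genes reached 1 FPKM in a mutant library. The table holds no counts, so depth is known only in relative terms: judged from its low values, 1 fragment was worth 1.06 to 1.38 times as much FPKM in the mutant libraries as in Sham_0, and 2.27 times as much in Sham_1 and Sham_2. Low values were thus coarsest in Sham_1 and Sham_2. Xist, the X-inactivation transcript of female cells, stood at 20.1 and 23.4 FPKM in RiPK1D138N_1 and RiPK1D138N_2, at 0.02145 FPKM in RiPK1D138N_0 and at 0.01413 to 0.03298 FPKM in Sham. The mutant group therefore mixes 2 Xist-positive libraries with 1 that is Xist-negative like Sham. Counts for most pathway lists below are also given with RiPK1D138N_0 as the only mutant library, a fit that assumes it varies like the other groups. Such a fit has less power, so a smaller count does not by itself show that RiPK1D138N_0 differs from the other mutant libraries. Hepatocyte markers were high in all libraries (their sum was 29025, 30578 and 29643 FPKM in the mutant and 45849, 45744 and 54789 FPKM in Sham), although Alb is listed at 0 in every library, as are Apoe and Serpina1b. Such zeros can be failed estimates, and no fold is given for a gene listed at 0 in a whole group that reached 100 FPKM in another.

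In the mutant, 881 genes were higher than Sham (7.51% of those tested) and 2658 were lower (22.7%) by limma at an adjusted p under 0.05. Of these, 384 were higher and 797 were lower by at least 1 log2 unit. In WT against the same Sham libraries, 1918 genes were higher (16.4%) and 4913 were lower (41.9%). Mutant and WT were compared directly as the test of the difference between them: 3500 genes were higher in the mutant (29.8%) and 2570 were lower (21.9%). The split between higher and lower depends on the scaling, because the median difference of all tested genes between mutant and Sham was -0.22 log2 units on the deposited scale. It was 0.02 under median-of-ratios scaling, -0.03 under quantile normalization and 0.17 after rescaling every library to a common sum of FPKM. The counts of higher and lower genes were then 1404 and 1235, 1169 and 1347, and 1831 and 671. For WT against Sham they were 3169 and 3185, 2936 and 3164, and 6236 and 1183, and for mutant against WT 3122 and 3199, 3030 and 3286, and 1677 and 5644. Every log2 difference below is on the log2(FPKM + 1) scale of the deposited values, which understates the change of low genes.

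The 3 mutant libraries lay on the same side of Sham for most called genes. Of the 881 higher genes, 820 had all 3 mutant values above all 3 Sham values, and of the 2658 lower genes 2576 had all 3 below. RiPK1D138N_0 lay above every Sham library for 829 of the higher genes, RiPK1D138N_1 for 874 and RiPK1D138N_2 for 879. Their median difference from mean Sham over these genes was 0.711, 1.01 and 1.02, and over the lower genes -0.777, -0.816 and -0.844. These genes were called from the same values, so their agreement is no independent check. Over all tested genes, RiPK1D138N_0, RiPK1D138N_1 and RiPK1D138N_2 lay at least 1 log2 unit above every Sham library in 278, 379 and 331 genes. They lay at least 1 log2 unit below every Sham library in 393, 584 and 559 genes. The mutant libraries were not equally alike. RiPK1D138N_1 and RiPK1D138N_2 differed by at least 1 log2 unit in 198 tested genes, whereas RiPK1D138N_0 differed from them in 900 and 703. Between Sham libraries the same count was 329 to 729. With RiPK1D138N_0 as the only mutant library, 300 genes were higher and 738 were lower. Without RiPK1D138N_0 the counts were 1104 and 2405, without RiPK1D138N_1 they were 581 and 1945, and without RiPK1D138N_2 they were 529 and 1720.

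**Figure D1:**
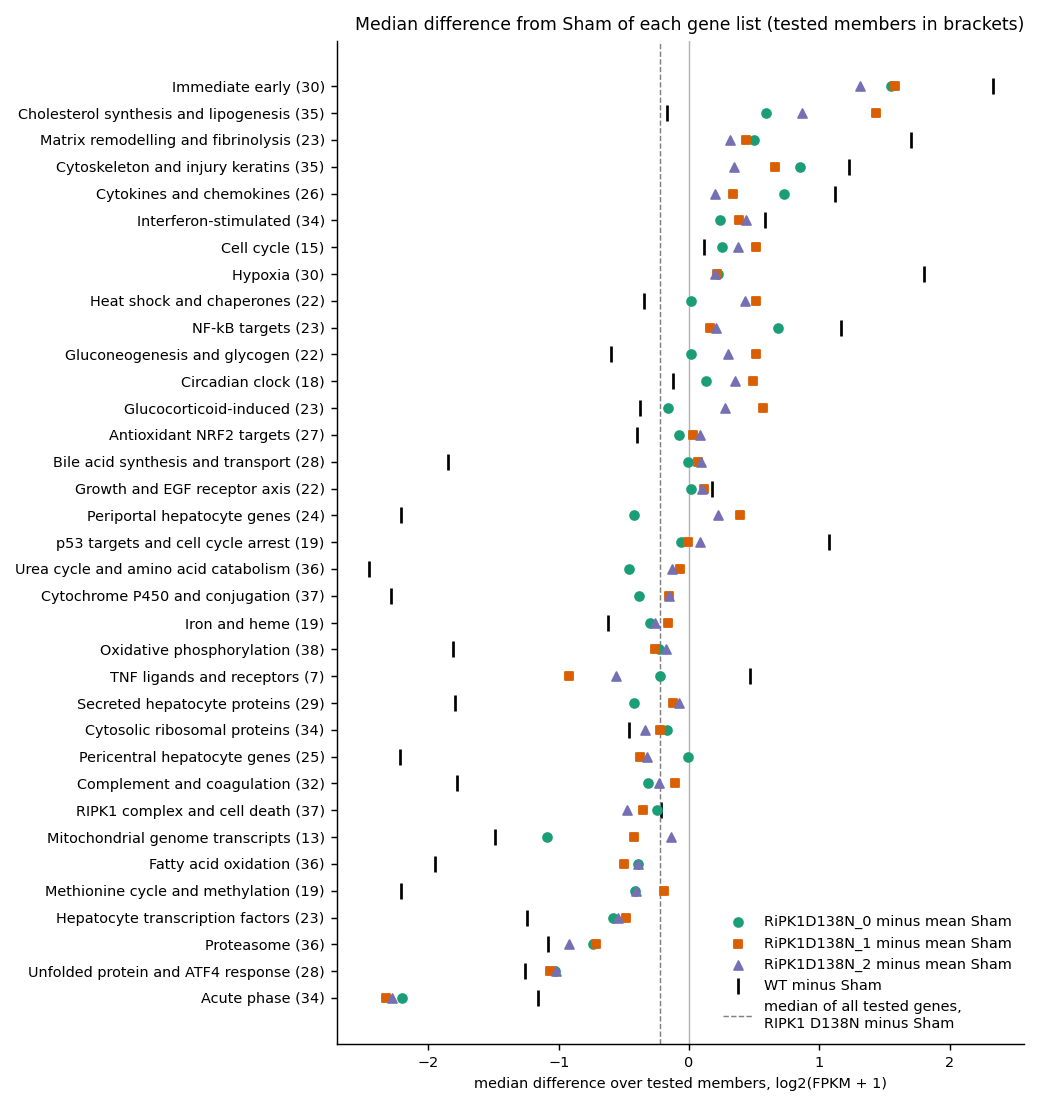
Median difference from mean Sham (x axis, log2(FPKM + 1) units) over the tested members of each gene list (y axis, number of members in brackets), drawn separately for the 3 mutant libraries (coloured symbols) and for WT as a group (black ticks); the dashed line is the median of all tested genes. Immediate early genes sit near 1.42 and acute-phase genes near -2.29 in all 3 mutant libraries. Oxidative phosphorylation sits at -0.23, -0.26 and -0.18 in RiPK1D138N_0, RiPK1D138N_1 and RiPK1D138N_2. The urea cycle list sits at -0.46, -0.07 and -0.13 in the same order. In WT these lists sit near -1.81 and -2.46.

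The targeted gene was described first. Ripk1 (its locus in the table, which can span neighbouring genes, is chromosome 13, 33917918 to 34037147 on mm10) read 5.18, 5.61 and 9.09 FPKM in Sham and 3.52, 3.89 and 3.03 FPKM in the mutant libraries, against 3.88 ± 0.859 FPKM in WT (mean ± SD, n = 3). All mutant values lay below all Sham values (log2 difference -0.74, SE 0.203, adjusted p = 0.0167 by limma), and no difference between mutant and WT was called (log2 difference -0.11, 95% interval -0.55 to 0.33, adjusted p = 0.659). The difference from Sham missed the threshold under median-of-ratios scaling (adjusted p = 0.0773), quantile normalization (0.066) and rescaling to a common sum (0.296). A level per gene does not check a single substitution in the protein, so the genotype label was not tested by it.

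Among the TNF-family ligands and receptors, 0 of 7 tested genes rose and 3 fell in the mutant, and 0 and 2 with RiPK1D138N_0 alone. Tnfrsf1a, the receptor TNFR1 that recruits RIPK1, read 59.3, 60.7 and 88.5 FPKM in Sham and 18.9, 21 and 19.4 FPKM in the mutant libraries. The groups were far apart (log2 difference -1.74, SE 0.185, adjusted p = 6.25e-05 by limma), and the mutant was also below WT at 35.1 ± 2.9 FPKM (log2 difference -0.80, adjusted p = 0.00304). Ltbr, the lymphotoxin β receptor, read 55.5, 47.4 and 49.6 FPKM in Sham and 23.4, 21.3 and 21.8 FPKM in the mutant libraries, with log2 differences from Sham of -1.16 in the mutant and -1.32 in WT. Fas, a death receptor, read 25.9, 15.5 and 24.4 FPKM in Sham and 14.1, 9.78 and 9.72 FPKM in the mutant libraries, and stood above WT at 3.6 ± 0.556 FPKM. Its fall from Sham missed the threshold under each of the other scalings. Tnfrsf12a, the receptor of the cytokine TWEAK, read 16.5, 12.4 and 17 FPKM in Sham and 27.9, 7.54 and 9.94 FPKM in the mutant libraries against 156 ± 22 FPKM in WT: its mutant values lay on both sides of Sham, and mutant and WT differed by -3.48 log2 units (adjusted p = 8.5e-06). Tnfrsf1b, which encodes TNFR2, read 3.83, 8.61 and 8.33 FPKM in Sham and 5.48, 6.04 and 5.04 FPKM in the mutant libraries, within the Sham range.

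Of the 37 tested genes of the RIPK1 complex and cell death, 3 rose and 12 fell, beside 7.51% and 22.7% of all tested genes. The share of rises was thus near that of all tested genes. The list median was -0.31 beside -0.22 for all tested genes. Higher and lower counts were 4 and 7 under median-of-ratios scaling, 4 and 7 under quantile normalization, and 7 and 3 under rescaling to a common sum, and 2 and 5 with RiPK1D138N_0 alone. Ikbkg, which encodes NEMO, the regulatory subunit of the IκB kinase complex, read 23.1, 21.5 and 15.9 FPKM in Sham and 6.12, 4.22 and 2.65 FPKM in the mutant libraries (log2 difference -2.02, SE 0.277, adjusted p = 0.000293 by limma). No other member of the list fell further, and WT stood at 19 ± 5.72 FPKM, so mutant and WT differed by -1.92 (adjusted p = 9.56e-05). Casp8, the initiator caspase of the death arm, read 17.9, 20.2 and 21.8 FPKM in Sham and 9.86, 8.63 and 7.52 FPKM in the mutant libraries and was lower still in WT, at 5.33 ± 1.18 FPKM (adjusted p = 0.0109 for mutant against WT). Map3k7, the kinase TAK1, fell by 1.06 log2 units, its adaptor Tab2 fell by 1.05 (adjusted p = 0.108 under rescaling to a common sum) and Tbk1, a kinase that restrains RIPK1, fell by 0.96.

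Tnfaip3 and Birc3 were among the members that rose. Tnfaip3 encodes A20, an NF-κB-induced brake on TNF signalling, and read 0.65, 0.262 and 0.282 FPKM in Sham and 3.8, 1.9 and 2.5 FPKM in the mutant libraries (log2 difference 1.40, SE 0.265, adjusted p = 0.00231 by limma). WT reached 8.78 ± 2.96 FPKM, above all 3 mutant libraries (log2 difference of mutant from WT -1.37, adjusted p = 0.000865). Birc3, the ubiquitin ligase cIAP2, read 1.94, 1.45 and 1.12 FPKM in Sham and 4.72, 3.76 and 4.55 FPKM in the mutant libraries, without overlap (95% interval of the log2 difference 0.68 to 1.52, adjusted p = 0.00149 by limma). Mlkl, the pore-forming effector of necroptosis, read 3.88, 1.65 and 2.66 FPKM in Sham and 2.17, 1.3 and 1.17 FPKM in the mutant libraries and was not called against Sham (log2 difference -0.53, 95% interval -1.04 to -0.02). It was lower than WT at 5.13 ± 0.774 FPKM (log2 difference -1.28, adjusted p = 0.000581).

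**Figure D2:**
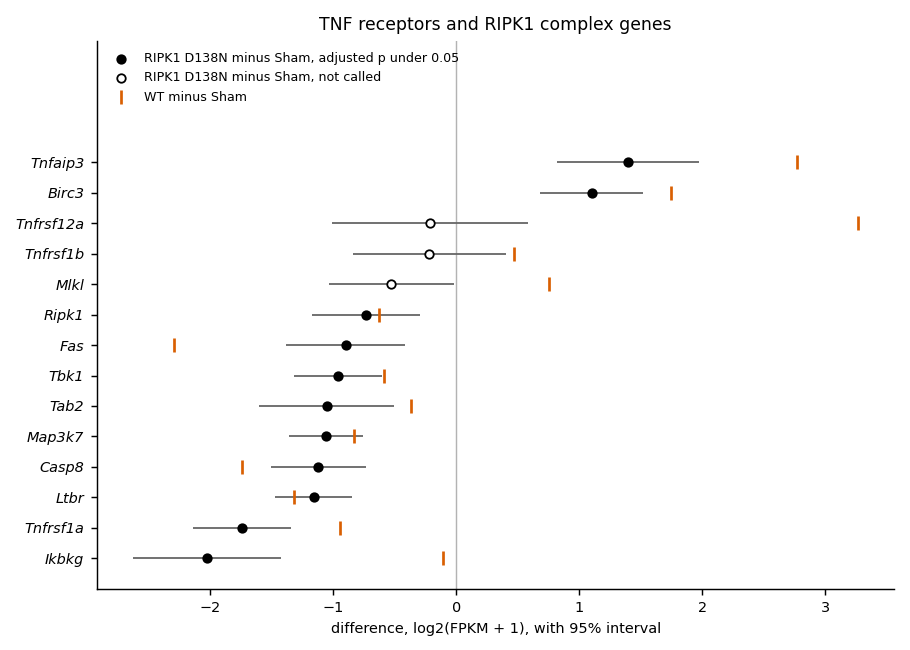
Difference of the mutant from Sham (x axis, log2(FPKM + 1) units; points with 95% intervals, filled where the limma adjusted p is under 0.05) for the TNF receptor and RIPK1 complex genes named here (y axis), with the difference of WT from Sham as orange ticks. Ikbkg and Tnfrsf1a lie lowest at -2.02 and -1.74, and Tnfaip3 lies highest at 1.40, below its WT tick at 2.77.

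The immediate early response was present in kinase-dead livers. These are the genes switched on within minutes of a stimulus without new protein synthesis. Of 30 tested members 19 rose and 0 fell in the mutant (median 1.42), and 27 rose in WT (median 2.33). Both comparisons use the same Sham libraries. The medians of the mutant libraries were 1.55, 1.58 and 1.31, and 18 members rose with RiPK1D138N_0 alone. In the direct test 16 members were lower and 1 was higher in the mutant than in WT.

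Fos, a subunit of the AP-1 transcription factor (chromosome 12, 85473890 to 85477273 on mm10), read 0.928, 1.63 and 1.54 FPKM in Sham and 42.8, 57.4 and 58.2 FPKM in the mutant libraries (log2 difference 4.51, SE 0.197, adjusted p = 1.12e-08 by limma). The lowest mutant value was far above the highest Sham value, and WT stood at 36.9 ± 5.23 FPKM (n = 3), below the mutant (log2 difference 0.50, adjusted p = 0.0484). Cyr61, a matrix-associated signalling protein (chromosome 3, 145646976 to 145649981), read 2.76, 1.71 and 2.03 FPKM in Sham and 60.9, 65.1 and 63.3 FPKM in the mutant libraries (log2 difference 4.35, SE 0.232, adjusted p = 9.84e-08). Its 3 mutant values were close together and next to WT at 70.8 ± 3.24 FPKM (interval of the difference from WT -0.66 to 0.34). Egr1, a zinc-finger transcription factor, read 3.03, 8.78 and 18.9 FPKM in Sham and 57.8, 107 and 86.7 FPKM in the mutant libraries, with Sham libraries spread over a wide range but all below the mutant (log2 difference 3.16, SE 0.443, adjusted p = 0.000349). Nr4a1, an orphan nuclear receptor, read 0.323, 0.404 and 0.294 FPKM in Sham and 6.61, 7.85 and 8.85 FPKM in the mutant libraries and Fosb, another AP-1 subunit, 0.0853, 0 and 0 FPKM in Sham and 6.92, 6.7 and 8.65 FPKM in the mutant libraries. For Fos, Cyr61, Fosb and Nr4a1 the 95% interval of mutant minus WT lay within 1 log2 unit of 0. Jun (12.3, 24.3 and 31.8 FPKM in Sham and 75.1, 104 and 97.2 FPKM in the mutant libraries) and Dusp1, a phosphatase that switches MAP kinases off (5.9, 20.9 and 15.2 FPKM in Sham and 58.5, 79.2 and 78.5 FPKM in the mutant libraries), had WT levels of 107 ± 19.4 and 48.5 ± 6.13 FPKM beside them (intervals of the difference from WT -0.88 to 0.46 and -0.21 to 1.32).

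Other members rose less than in WT, and several of them were highest in RiPK1D138N_0. Atf3, a stress-induced transcription factor, read 3.62, 2.68 and 2.21 FPKM in Sham and 118, 59.9 and 57.3 FPKM in the mutant libraries (log2 difference 4.31, SE 0.289, adjusted p = 1.57e-06 by limma), and only RiPK1D138N_0 was in the WT range of 131 ± 41.6 FPKM. Ier3, an early survival gene, read 0.806, 0.733 and 1.19 FPKM in Sham and 35.5, 9.82 and 14.2 FPKM in the mutant libraries against 105 ± 28.7 FPKM in WT, a difference between mutant and WT of -2.51 (adjusted p = 0.000144). Maff, a small Maf factor, read 1.12, 1.79 and 1.29 FPKM in Sham and 28, 9.91 and 12.7 FPKM in the mutant libraries against 57.7 ± 7.07 FPKM in WT. Again RiPK1D138N_0 was the highest mutant library and all 3 lay above Sham. Myc read 2.5, 3.71 and 3.9 FPKM in Sham and 15.4, 13.4 and 11.8 FPKM in the mutant libraries against 52.2 ± 6.09 FPKM in WT, here with the 3 mutant libraries close together. Klf6, a zinc-finger factor, read 5.04, 3.83 and 4.69 FPKM in Sham and 12.3, 5.47 and 5.49 FPKM in the mutant libraries and was not called against Sham on the deposited scale (adjusted p = 0.124), while it was called under median-of-ratios scaling (adjusted p = 0.0469). It was lower than WT at 48.4 ± 4.58 FPKM (log2 difference -2.58, SE 0.274, adjusted p = 8.84e-06 for mutant against WT).

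**Figure D3:**
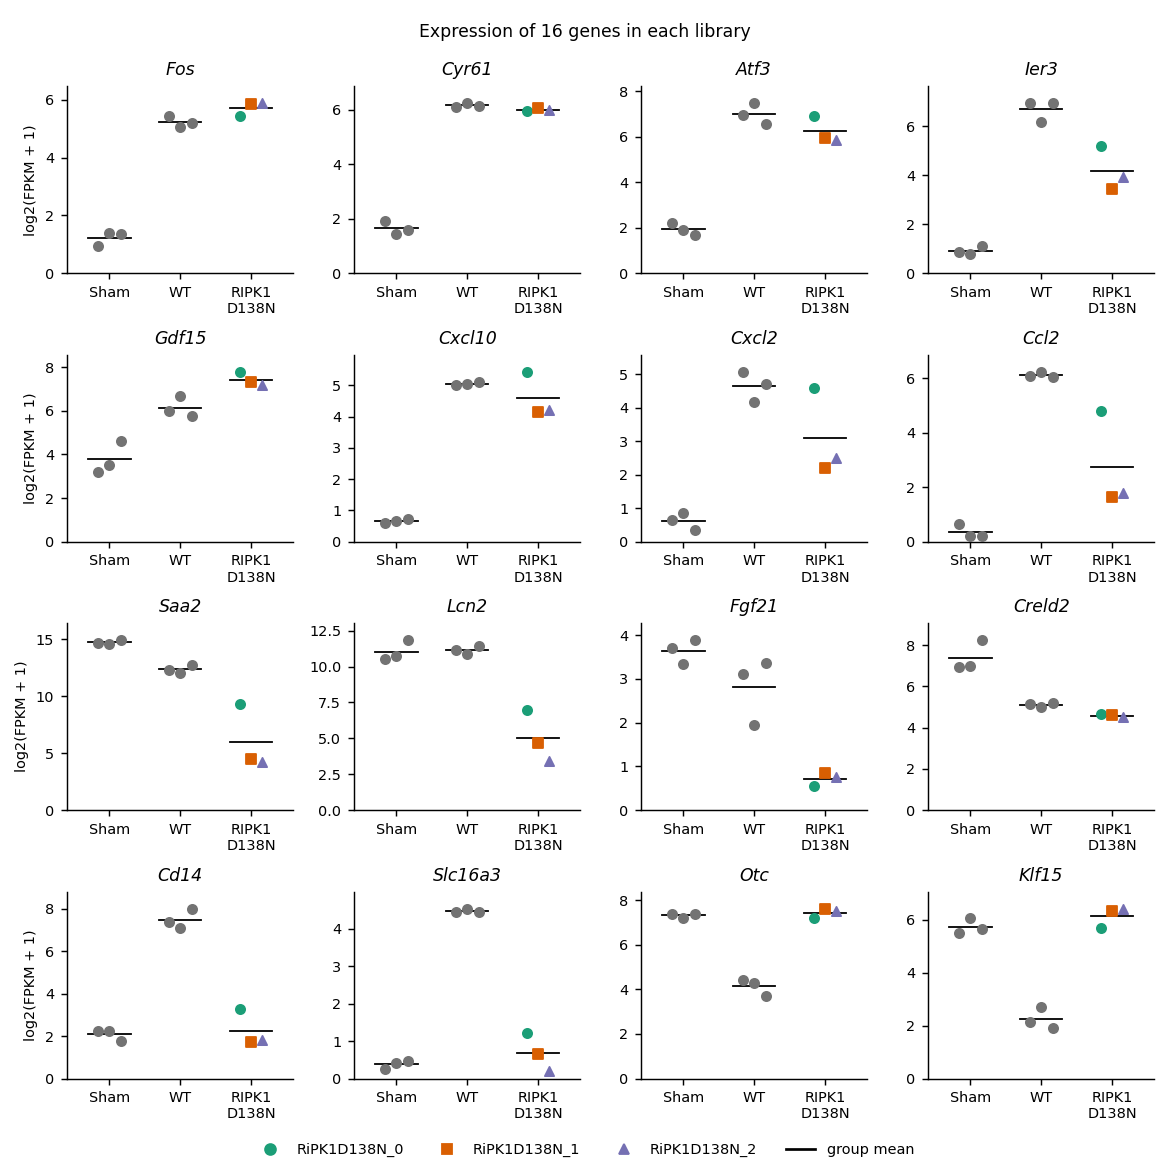
Level in each library (y axis, log2(FPKM + 1)) of 16 genes in Sham, WT and RIPK1 D138N; the mutant libraries carry their own colours and symbols, and lines mark group means. Fos and Cyr61 lie far above Sham in all 3 mutant libraries, Ier3, Cxcl2 and Ccl2 are highest in RiPK1D138N_0, Saa2 and Lcn2 are below both other groups, and Cd14, Slc16a3, Otc and Klf15 lie near Sham.

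Promoter sequences of members that moved together were taken from RefSeq on GRCm38.p6, and the 250 bases before each start were searched on both strands. Of the 32851 promoters searched, 1.55% held the cAMP response element TGACGTCA and 1.47% held a CArG box, the site of serum response factor. Counted per tested gene with a promoter entry, the shares were 3.08% and 1.33%. Among the 24 immediate early genes with a promoter entry, 4 held TGACGTCA (Maff, Dusp1, Btg2 and Ppp1r15a), and the first 3 of these rose in the mutant. Another 4 held a CArG box (Dusp5, Zfp36, Egr2 and Srf), of which Dusp5 and Zfp36 rose. Of 110 tested genes with a CArG box, 13 were higher and 26 lower than Sham, beside 7.51% and 22.7% of all tested genes. TGACGTCA did not mark higher genes in general: of 254 tested genes with this element, 10 were higher and 71 lower than Sham. The stretches of 100 bases below hold the element in the 3 genes that rose, in capitals, and lie at chr15:79347420-79347519 (plus strand), chr17:26508562-26508661 (minus strand) and chr1:134079268-134079367 (minus strand), each written 5′ to 3′ toward the start.
Maff: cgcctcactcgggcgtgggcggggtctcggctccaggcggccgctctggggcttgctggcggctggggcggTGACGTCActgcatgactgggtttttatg
Dusp1: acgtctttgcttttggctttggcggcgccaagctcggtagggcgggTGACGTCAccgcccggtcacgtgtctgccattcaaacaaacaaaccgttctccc
Btg2: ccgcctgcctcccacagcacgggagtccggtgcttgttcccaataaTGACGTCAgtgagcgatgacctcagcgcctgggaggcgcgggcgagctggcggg

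NF-κB targets and chemokines were induced in part, and unevenly between the mutant libraries. Of 23 tested NF-κB targets 8 rose and 3 fell in the mutant (median 0.32; library medians 0.69, 0.16 and 0.21), against 15 and 2 in WT (median 1.17). The counts of rises and falls were 9 and 1 with RiPK1D138N_0 alone and 9 and 2 under median-of-ratios scaling, 9 and 2 under quantile normalization, and 12 and 2 under rescaling to a common sum. In the direct test 12 were lower and 2 were higher in the mutant than in WT. Nfkbia, which encodes the inhibitor IκBα, read 26.1, 29.5 and 31.6 FPKM in Sham and 136, 86.5 and 107 FPKM in the mutant libraries (log2 difference 1.86, SE 0.219, adjusted p = 0.000113 by limma), and all mutant values exceeded WT at 70.1 ± 6.71 FPKM. Nfkbiz, a nuclear IκB protein, read 1.72, 2.7 and 1.14 FPKM in Sham and 12.3, 10.8 and 10.1 FPKM in the mutant libraries, next to WT at 12.2 ± 2.56 FPKM (interval of the difference from WT -0.68 to 0.43). The members that fell were Bcl3, Nfkbib and Sqstm1, of which Sqstm1 missed the threshold under each of the other scalings (adjusted p = 0.118 to 0.285). Bcl3, another nuclear IκB protein, read 25.2, 38.9 and 91.3 FPKM in Sham and 16.6, 7.94 and 9.13 FPKM in the mutant libraries, with Sham_2 far above the other Sham libraries.

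Ccl2, the chemokine that draws monocytes, read 0.56, 0.142 and 0.141 FPKM in Sham and 26.5, 2.13 and 2.41 FPKM in the mutant libraries (log2 difference 2.39, SE 0.681, adjusted p = 0.0194 by limma). All 3 mutant values exceeded Sham, but RiPK1D138N_0 was more than 10 times the other mutant libraries and none reached WT at 68.9 ± 5.14 FPKM. Cxcl2, a neutrophil chemokine, read 0.578, 0.825 and 0.281 FPKM in Sham and 23.1, 3.58 and 4.62 FPKM in the mutant libraries, so that RiPK1D138N_0 was within the WT range (24.8 ± 7.78 FPKM, n = 3) and the other 2 were not. Cxcl10, a chemokine for T cells, read 0.504, 0.574 and 0.667 FPKM in Sham and 42.5, 16.6 and 17.6 FPKM in the mutant libraries, with RiPK1D138N_0 again highest and all mutant values far above Sham (log2 difference 3.94, SE 0.313, adjusted p = 7.42e-06). Gdf15, a stress cytokine of the TGF-β family, read 8.28, 10.4 and 23.4 FPKM in Sham and 221, 157 and 145 FPKM in the mutant libraries (log2 difference 3.65, SE 0.391, adjusted p = 6.73e-05). It exceeded WT at 72.8 ± 25.3 FPKM in each mutant library (log2 difference from WT 1.28, adjusted p = 0.0154). Ccl6, a macrophage chemokine, fell, from 15.9, 14.3 and 8.82 FPKM in Sham to 4.76, 2.39 and 1.84 FPKM in the mutant, while WT stood at 23.3 ± 3.06 FPKM. In all, 10 of 26 tested cytokines and chemokines rose and 3 fell, and 11 rose with RiPK1D138N_0 alone.

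The κB site, searched on both strands as GGGA, any 2 bases and TTCC, was in 1.21% of all promoters, 1.44% of tested genes with an entry and in 4 of the 18 NF-κB targets with an entry (Nfkbia, Cxcl2, Nfkb2 and Cxcl1). Nfkbia and Cxcl2 rose, and Nfkb2 and Cxcl1 did not pass the test. Of 119 tested genes with the site, 20 were higher and 23 lower, beside 7.51% and 22.7% of all tested genes. The list was composed of known NF-κB targets, so its share with the site is no independent test. The sites of both risen genes are in capitals below. Those of Cxcl2 are 2 overlapping matches, and the stretches lie at chr12:55492648-55492747 (minus strand) and chr5:90903757-90903856 (plus strand).
Nfkbia: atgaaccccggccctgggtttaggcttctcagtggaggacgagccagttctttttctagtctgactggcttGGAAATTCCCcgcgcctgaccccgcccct
Cxcl2: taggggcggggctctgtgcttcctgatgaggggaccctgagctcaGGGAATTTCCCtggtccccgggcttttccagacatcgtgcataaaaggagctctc

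Hypoxia genes were mostly lower in the mutant than in ischemic WT livers: in the direct test 27 of 30 tested members were lower in the mutant than in WT and 0 were higher. Against Sham, 6 rose and 3 fell in the mutant (median 0.39; library medians 0.22, 0.22 and 0.20), and 25 rose and 2 fell in WT (median 1.80). The counts in the mutant were 10 and 1 under median-of-ratios scaling, 9 and 1 under quantile normalization, and 13 and 1 under rescaling to a common sum, and 6 and 1 with RiPK1D138N_0 alone. Adm, the vasodilator adrenomedullin, read 1.31, 0.783 and 0.924 FPKM in Sham and 5.81, 1.95 and 2.94 FPKM in the mutant libraries against 48 ± 11.7 FPKM in WT. Egln3, an oxygen-sensing prolyl hydroxylase, read 1.9, 1.9 and 1.87 FPKM in Sham and 7.75, 3.06 and 3.36 FPKM in the mutant libraries against 35 ± 3.2 FPKM in WT, and RiPK1D138N_0 was the highest mutant library for both. P4ha1, a collagen prolyl hydroxylase, had the opposite order, at 1.67, 1.19 and 2.06 FPKM in Sham and 2.88, 8.2 and 6.47 FPKM in the mutant libraries, and with RiPK1D138N_0 alone its difference of 0.57 was not called (adjusted p = 0.218). Ldha, lactate dehydrogenase, fell in the mutant, from 699.8, 701 and 809 FPKM to 352, 226 and 203 FPKM.

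Of 22 chaperones 7 rose and 3 fell, 3 and 3 with RiPK1D138N_0 alone, and 12 and 3 under median-of-ratios scaling, 11 and 3 under quantile normalization, and 12 and 2 under rescaling to a common sum. Hspa1b, an inducible HSP70, read 1.2, 1.99 and 2.12 FPKM in Sham and 10.4, 17.2 and 16.8 FPKM in the mutant libraries (95% interval of the log2 difference 1.82 to 3.17, adjusted p = 0.000157 by limma), and Hspb1, the small chaperone HSP27, read 11.9, 13 and 19.7 FPKM in Sham and 88.9, 67.1 and 91.8 FPKM in the mutant libraries (log2 difference 2.42, SE 0.342, adjusted p = 0.000375). Mutant and Sham values did not overlap in either, and WT stood at 20.7 ± 10.7 and 88 ± 57.5 FPKM (intervals of the difference from WT -1.04 to 0.30 and -0.66 to 0.82). Hspa1a and Hspa1b are near-identical copies that share fragments, so their separate values are uncertain. Of 19 p53 targets 5 rose and 5 fell, beside 7.51% and 22.7% of all tested genes, against 14 and 2 in WT. The share of falls was thus near that of all tested genes. The library medians were -0.06, -0.005 and 0.09. Rises and falls numbered 6 and 3 under median-of-ratios scaling, 6 and 3 under quantile normalization, and 6 and 2 under rescaling to a common sum. Cdkn1a, the cell cycle inhibitor p21, was among those that fell, from 25.2, 51.6 and 59.6 FPKM in Sham to 19.6, 11 and 8.57 FPKM, and Gadd45a, a stress sensor, was among those that rose, from 9.7, 12.5 and 41.6 to 212, 64.8 and 66.1 FPKM.

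Of 35 cytoskeleton and injury keratin genes 15 rose and 2 fell (median 0.57), against 21 and 1 in WT, and 8 rose with RiPK1D138N_0 alone. Vim, the filament protein vimentin, read 2.33, 2.35 and 3.93 FPKM in Sham and 9.95, 15.4 and 13.1 FPKM in the mutant libraries, above every Sham library and below WT at 34.7 ± 7.98 FPKM. Of 23 matrix genes 7 rose and 2 fell (6 and 1 with RiPK1D138N_0 alone), against 16 and 2 in WT. Timp3, an inhibitor of matrix proteases, read 2.08, 3.29 and 2.15 FPKM in Sham and 4.49, 8.73 and 8.32 FPKM in the mutant libraries, with WT at 2.11 ± 0.404 FPKM, and Serpine2, a protease inhibitor, fell from 15.6, 11.8 and 32.8 FPKM to 7.38, 1.32 and 1.59 FPKM. Of 34 interferon-stimulated genes 11 rose and 3 fell. The library medians were 0.24, 0.39 and 0.44, lowest in RiPK1D138N_0 and higher in the 2 Xist-positive libraries. Without RiPK1D138N_0 14 rose and 3 fell. The counts moved to 15 and 1 under median-of-ratios scaling and to 10 and 1 under quantile normalization. Under rescaling to a common sum they were 22 and 0. Igtp, an interferon-induced GTPase, read 5.35, 7.93 and 9.12 FPKM in Sham and 15.9, 23.9 and 27.3 FPKM in the mutant libraries, with the 2 Xist-positive libraries highest.

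Acute-phase genes, which hepatocytes transcribe under IL-6 and IL-1 signalling, were far below Sham in all 3 mutant libraries. Of the 32 tested members not listed at 0 in a whole group 25 fell and 0 rose (median -2.33). The other 2, Hp and Serpina3m, are listed at 0 in Sham and are given no fold. With both counted, the median was -2.29 and the medians of the mutant libraries were -2.20, -2.33 and -2.28, and 24 members fell with RiPK1D138N_0 alone. In WT the list median was -1.16, and in the direct test 22 of 34 were lower and 6 higher in the mutant than in WT. The count of falls was 24 under median-of-ratios scaling, 24 under quantile normalization and 24 under rescaling to a common sum.

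Saa2, a serum amyloid A gene (chromosome 7, 46751790 to 46754313 on mm10), read 26069, 23655 and 30614 FPKM in Sham and 612, 21.7 and 17.8 FPKM in the mutant libraries (log2 difference -8.70, SE 0.985, adjusted p = 9.14e-05 by limma). Saa1 read 24270, 19788 and 22200 FPKM in Sham and 744, 33.8 and 36 FPKM in the mutant libraries (log2 difference -7.80, SE 0.88, adjusted p = 8.98e-05). Both genes are near-identical copies whose fragments can be shared, and in both RiPK1D138N_0 kept more than 10 times the level of the other mutant libraries while staying below every Sham and every WT library. Together they held 6.69 to 7.04% of all FPKM in Sham, 0.261% in RiPK1D138N_0 and no more than 0.0113% in the other mutant libraries. Lcn2, the iron-binding lipocalin 2, read 1502, 1729 and 3679 FPKM in Sham and 123, 24.6 and 9.86 FPKM in the mutant libraries and was at 2292 ± 454 FPKM in WT, where no difference from Sham was called (interval -1.36 to 1.55). The mutant was lower than both (log2 difference -6.03, SE 0.672, adjusted p = 8.22e-05 against Sham, -6.12 against WT). Serpina3n, an inhibitor of neutrophil proteases, read 1262, 2188 and 2827 FPKM in Sham and 91.7, 91.3 and 73.7 FPKM in the mutant libraries, here with the 3 mutant libraries close together (log2 difference -4.53, SE 0.312, adjusted p = 1.77e-06).

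Further from Sham than WT were also Orm2, an orosomucoid, at 298, 319.5 and 379.6 FPKM in Sham and 16.5, 27 and 36.3 FPKM in the mutant libraries, and the metallothioneins Mt1 and Mt2, which bind zinc and copper. Mt1 read 4477, 5501 and 10550 FPKM in Sham and 769, 589 and 388 FPKM in the mutant libraries, and Mt2 read 2984, 4386 and 8872 FPKM in Sham and 799.9, 537 and 351 FPKM in the mutant libraries. The mutant values of all 3 genes lay below Sham without overlap and also below WT (log2 differences from WT of -3.91, -2.64 and -2.77). Fgb, the fibrinogen β chain, read 3726, 4514 and 5163 FPKM in Sham and 706, 717 and 780.2 FPKM in the mutant libraries, even across the mutant libraries, with WT between at 1730 ± 284 FPKM. Stat3, the transcription factor below the IL-6 receptor, fell from 21, 34.8 and 52.7 FPKM to 10.9, 12 and 9.65 FPKM, and Il1r1, the IL-1 receptor, fell from 53.6, 65.5 and 79.3 FPKM to 7.55, 3.71 and 5.21 FPKM.

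Genes of the unfolded protein and ATF4 response, which raise folding and amino acid supply in a stressed endoplasmic reticulum, were lower than in Sham: 19 of 28 tested members fell and 0 rose (median -1.05). The 3 mutant libraries gave medians of -1.03, -1.06 and -1.02, and 14 members fell with RiPK1D138N_0 alone. Higher and lower counts were 1 and 17 under median-of-ratios scaling, 1 and 17 under quantile normalization, and 2 and 13 under rescaling to a common sum. In WT 21 members fell and 5 rose (median -1.26). Creld2, a chaperone-like protein of the endoplasmic reticulum (chromosome 15, 88819646 to 88826683 on mm10), read 121, 125 and 302 FPKM in Sham and 24, 23.1 and 21.5 FPKM in the mutant libraries (log2 difference -2.81, SE 0.276, adjusted p = 3.67e-05 by limma), with WT at 33.8 ± 2.68 FPKM (interval of the difference from WT -1.14 to 0.06). Sdf2l1, a cofactor of the chaperone BiP, read 161, 115 and 238 FPKM in Sham and 30.1, 23.6 and 31.9 FPKM in the mutant libraries (log2 difference -2.49, SE 0.256, adjusted p = 4.93e-05). In both genes the mutant libraries were alike and far below the lowest Sham value. Asns, asparagine synthetase, read 16.4, 21.6 and 11.5 FPKM in Sham and 2.47, 0.173 and 0.0849 FPKM in the mutant libraries, where RiPK1D138N_0 lay between Sham and the other mutant libraries. Fgf21, a fasting and stress hormone of the liver, read 12, 9.16 and 13.8 FPKM in Sham and 0.46, 0.796 and 0.697 FPKM in the mutant libraries, below WT at 6.61 ± 3.33 FPKM (log2 difference from WT -2.09, adjusted p = 8e-05).

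The endoplasmic reticulum stress element, searched on both strands as CCAAT, any 9 bases and CCACG, was in 0.113% of all promoters, 0.182% of tested genes with an entry and in 8 of the 25 members of this list with an entry. Of these 8 genes Calr, Creld2, Dnajc3, Hsp90b1, Hspa5, Pdia6 and Syvn1 fell, and Canx did not pass the test (log2 difference -0.38, adjusted p = 0.0841). Over all 15 tested genes with the element, 9 were lower and 0 higher, a set in which these 8 are included. Of all tested genes 22.7% were lower and 7.51% higher. The list was composed of known genes of this response, so its share with the element is no independent test. Syvn1, a ubiquitin ligase of the endoplasmic reticulum, read 28.5, 49 and 129.9 FPKM in Sham and 10.6, 13.1 and 11.9 FPKM in the mutant libraries, and Hspa5, the chaperone BiP, read 825, 858 and 1583 FPKM in Sham and 587, 412 and 385 FPKM in the mutant libraries (adjusted p = 0.0556 under rescaling to a common sum). The stretches of Creld2, Syvn1 and Hspa5 follow, with the element in capitals, at chr15:88819479-88819578 (plus strand), chr19:6046476-6046575 (plus strand) and chr2:34771984-34772083 (plus strand).
Creld2: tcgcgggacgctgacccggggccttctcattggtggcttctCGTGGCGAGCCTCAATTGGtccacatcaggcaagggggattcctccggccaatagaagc
Syvn1: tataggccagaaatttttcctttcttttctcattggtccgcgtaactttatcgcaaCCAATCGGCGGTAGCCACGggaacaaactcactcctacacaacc
Hspa5: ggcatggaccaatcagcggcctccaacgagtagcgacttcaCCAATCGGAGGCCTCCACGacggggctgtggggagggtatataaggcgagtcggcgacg

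Proteasome subunits were also lower. Of 36 tested subunits 25 fell and 1 rose (median -0.83; library medians -0.74, -0.72 and -0.92), and 6 fell with RiPK1D138N_0 alone. The falls numbered 17 under median-of-ratios scaling, 16 under quantile normalization and 8 under rescaling to a common sum. In WT 31 fell (median -1.09). Psmd6, a subunit of the regulatory particle, read 89.4, 79.4 and 76.9 FPKM in Sham and 36.2, 31.1 and 31.9 FPKM in the mutant libraries. Psmb10, an interferon-inducible catalytic subunit of the immunoproteasome, was the member that rose, at 29.3, 27 and 35.7 FPKM in Sham and 49.9, 62 and 61.2 FPKM in the mutant libraries, while it was lower than Sham in WT at 13.7 ± 3.2 FPKM (log2 difference of mutant from WT 2.01, adjusted p = 7.8e-06). Of 23 hepatocyte transcription factors 11 fell and 2 rose, against 21 falls and 0 rises in WT. The falls numbered 6, 6 and 0 under the same 3 scalings and 3 with RiPK1D138N_0 alone. Hnf4a, the master regulator of hepatocyte identity, read 85.2, 140.1 and 164 FPKM in Sham and 37.3, 63.6 and 51.1 FPKM in the mutant libraries, without overlap, with WT at 46.8 ± 14.2 FPKM (interval of the difference from WT -0.51 to 0.77). Its adjusted p was 0.0807 under rescaling to a common sum.

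On the deposited scale, the metabolic genes of the hepatocyte were where mutant and WT parted. Oxidative phosphorylation genes fell in 3 of 38 cases in the mutant and in 38 of 38 in WT, and 38 were higher in the mutant than in WT. Genes of the urea cycle and amino acid catabolism fell in 9 of 36 cases in the mutant (median -0.16) and in 35 in WT (median -2.46), with 34 higher in the mutant than in WT. Among 37 cytochrome P450 and conjugation genes 9 were lower and 3 higher in the mutant, and 37 fell in WT. Of the 26 secreted hepatocyte proteins not listed at 0 in a whole group 4 fell and 1 rose in the mutant, and all 26 fell in WT. With the loci listed at 0 counted, 6 of 29 fell in the mutant and 29 in WT, where Trf is listed at 0. These shares of falls in the mutant, apart from that of fatty acid oxidation (14 of 36), stood near or below the 22.7% of all tested genes. With RiPK1D138N_0 alone the falls numbered 0 for oxidative phosphorylation, 7 for urea cycle and amino acid catabolism, 3 for P450 genes and 6 for fatty acid oxidation. Under median-of-ratios scaling they numbered 0, 5, 3 and 8, and 6 P450 genes rose. The medians of these lists, negative on the deposited scale, turned positive under median-of-ratios scaling except that of fatty acid oxidation (-0.42 and -0.11), which did so under rescaling to a common sum (0.06). A median near 0 over many genes does not show that each gene was at its Sham level. List counts that involve WT, here and in other paragraphs, were taken on the deposited scale only. The WT libraries summed to 288934 to 303514 FPKM, less than any Sham or mutant library. Rescaled to a common sum, genes lower in WT than in Sham went from 4913 to 1183 over all tested genes. Genes higher in the mutant than in WT went from 3500 to 1677. How far these lists keep their counts then was not tested.

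Genes that WT lowered by at least 2 log2 units and whose 95% interval against Sham lay within 1 log2 unit of 0 in the mutant included Otc, Klf15, Tst and Apoc4. Otc, the urea cycle enzyme ornithine transcarbamylase, read 166, 144 and 164 FPKM in Sham and 146, 196 and 181 FPKM in the mutant libraries against 17 ± 4.33 FPKM in WT. Klf15, a regulator of amino acid breakdown, read 44.8, 65.6 and 49.6 FPKM in Sham and 50.05, 79.3 and 84.9 FPKM in the mutant libraries against 3.93 ± 1.44 FPKM in WT. Tst, a mitochondrial sulfurtransferase, read 277, 261 and 295 FPKM in Sham and 229, 231 and 273 FPKM in the mutant libraries against 31.1 ± 9.99 FPKM in WT, and Apoc4, an apolipoprotein, read 3554, 1920 and 2242 FPKM in Sham and 2351, 1719 and 2067 FPKM in the mutant libraries against 279.5 ± 134 FPKM. For these genes mutant and Sham values overlapped, and all mutant values lay above all WT values. Other genes that met the rule had all mutant values below all Sham values, such as Pxmp2 and Idh1 (log2 differences from Sham -0.31 and -0.41, not called). Another such gene was called lower than Sham (log2 difference -0.56, adjusted p = 0.04 by limma). The 95% interval of mutant minus Sham was -0.29 to 0.56 for Otc, -0.13 to 0.93 for Klf15, -0.65 to 0.28 for Tst and -0.97 to 0.39 for Apoc4. Rescaled to a common sum, Otc and Klf15 were called above Sham (log2 differences 0.62 and 0.88, adjusted p = 0.036 and 0.0355).

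Other enzymes stayed partly lowered. Nnmt, which methylates nicotinamide, read 1865, 1329 and 1788 FPKM in Sham and 289, 171 and 179.7 FPKM in the mutant libraries (log2 difference -2.98, SE 0.286, adjusted p = 3.13e-05 by limma), against 8.14 ± 1.95 FPKM in WT. Bhmt, which regenerates methionine from betaine, read 1624, 1849 and 1689 FPKM in Sham and 591, 429 and 358 FPKM in the mutant libraries, and Mat1a, which makes S-adenosylmethionine, read 1575, 2176 and 1647 FPKM in Sham and 446, 661 and 574 FPKM in the mutant libraries. In each of these genes the 3 mutant libraries lay between the WT and Sham ranges without touching either. Tdo2, which opens the tryptophan ring, read 1271, 1283 and 914 FPKM in Sham and 430.3, 394 and 384 FPKM in the mutant libraries, Kmo, a later enzyme of that pathway, 161, 177 and 194 FPKM in Sham and 57, 53.7 and 52 FPKM in the mutant libraries, and Arg1, the last enzyme of the urea cycle, 2574, 2003 and 1797 FPKM in Sham and 765, 903 and 908 FPKM in the mutant libraries. These were again between WT and Sham, with log2 differences from Sham of -1.50, -1.69 and -1.29, and adjusted p of 8.76e-07, 7.23e-06 and 0.000153 for mutant against WT. Sdsl, a serine dehydratase-like enzyme, read 22.6, 27.1 and 27.8 FPKM in Sham and 6.95, 7.42 and 7.45 FPKM in the mutant libraries, next to WT at 6.24 ± 2.02 FPKM (interval of the difference from WT -0.18 to 0.63).

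Genes of cholesterol synthesis and lipogenesis rose above Sham in 18 of 35 cases and fell in 1 (median 0.94; library medians 0.59, 1.44 and 0.86), with 4 rises and 10 falls in WT. With RiPK1D138N_0 alone 2 rose and 1 fell. Fasn, fatty acid synthase, read 11.5, 15.2 and 35.6 FPKM in Sham and 31, 252 and 190.5 FPKM in the mutant libraries, so RiPK1D138N_0 lay inside the Sham range and the others far above it (difference 0.72 with RiPK1D138N_0 alone, adjusted p = 0.487). Elovl6, a fatty acid elongase, read 3.41, 3.44 and 5.33 FPKM in Sham and 12, 41 and 27.8 FPKM in the mutant libraries. Here RiPK1D138N_0 was above Sham but lowest of the mutant libraries. Srebf1, the transcription factor that drives lipogenesis, read 5.47, 5.94 and 8.59 FPKM in Sham and 26.9, 89.9 and 57.1 FPKM in the mutant libraries, on both sides of WT at 52.8 ± 19.2 FPKM. Insig2, which holds SREBP in the endoplasmic reticulum, was the member that fell, at 261, 193 and 157 FPKM in Sham and 50.02, 21.1 and 21.8 FPKM in the mutant libraries.

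Of 22 genes of gluconeogenesis and glycogen 4 rose and 2 fell in the mutant, with 2 and 11 in WT. The counts in the mutant were 7 and 2 under median-of-ratios scaling, 7 and 2 under quantile normalization, and 11 and 1 under rescaling to a common sum, and 3 and 1 with RiPK1D138N_0 alone (library medians 0.02, 0.51 and 0.30). Ppp1r3g, a glycogen-targeting subunit of protein phosphatase 1, read 0.119, 0.233 and 0.194 FPKM in Sham and 9.5, 29.2 and 34.5 FPKM in the mutant libraries (log2 difference 4.25, SE 0.384, adjusted p = 2.14e-05 by limma) and Slc2a2, the glucose transporter GLUT2, 34.9, 30.2 and 32.8 FPKM in Sham and 88.5, 119 and 123 FPKM in the mutant libraries. Both were above Sham in all 3 libraries, with WT at 5.09 ± 2.42 and 9.24 ± 3.61 FPKM. Of 28 genes of bile acid synthesis and transport 5 rose and 8 fell, beside 7.51% and 22.7% of all tested genes. The balance turned with the settings, to 8 and 5 under median-of-ratios scaling, 5 and 5 under quantile normalization, and 9 and 4 under rescaling to a common sum, and 1 and 1 with RiPK1D138N_0 alone. Cyp7a1, which opens the main route from cholesterol to bile acids, read 5.78, 5.6 and 2.7 FPKM in Sham and 23.8, 36.2 and 24.3 FPKM in the mutant libraries (log2 difference 2.38, SE 0.332, adjusted p = 0.000337), above Sham in each mutant library while WT was below Sham at 0.687 ± 0.572 FPKM. Cyp8b1, which makes cholic acid, fell, from 137, 321 and 219.8 FPKM to 76, 63.6 and 36.5 FPKM. Inmt, an indole N-methyltransferase, rose from 175, 118 and 189 FPKM to 839.8, 1453 and 1620 FPKM, further from Sham than WT at 73 ± 31.4 FPKM.

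The widest gaps among the mutant libraries followed Xist. Of 14 tested female-biased liver genes 8 were called higher and 0 lower, and the library medians were 0.06, 4.51 and 3.91. Of the 19 male-biased genes not listed at 0 in a whole group 14 were called lower and 0 higher, and over all 21 the library medians were -0.25, -2.57 and -2.79. With RiPK1D138N_0 alone the counts of higher and lower members were 0 and 1 in the female-biased list and 3 and 0 in the male-biased list, the latter including genes listed at 0 in Sham. Cyp2a4, a steroid hydroxylase of female liver, read 2.29, 3.83 and 2.19 FPKM in Sham and 7.38, 1347 and 1072 FPKM in the mutant libraries, and Cyp2b9, another female-biased P450, 0.0221, 0.0502 and 0.301 FPKM in Sham and 0.177, 146 and 129 FPKM in the mutant libraries. Hamp2, a hepcidin gene, read 21.5, 17 and 49.6 FPKM in Sham and 70.7, 2917 and 2883 FPKM in the mutant libraries. In each, RiPK1D138N_0 stood much nearer to Sham, and the Xist-positive libraries lay far above it. C6, a complement component that is male-biased in mouse liver, read 59.1, 76.7 and 79.8 FPKM in Sham and 71.7, 1.48 and 1.28 FPKM in the mutant libraries, and Cyp4a12a, a male-specific P450 that was not called (adjusted p = 0.0529), 58, 88 and 124 FPKM in Sham and 160.2, 0.158 and 0.64 FPKM in the mutant libraries. The largest log2 differences of the comparison, outside the acute-phase and immediate early genes, thus include genes that differ between the mutant libraries more than between RiPK1D138N_0 and Sham. Genotype, ischemia and the sex that Xist marks cannot be told apart for them. Members of the Cyp2a, Cyp2b, Cyp2c and Mup families share near-identical copies, and their separate values are uncertain. Most Mup genes are listed at 0 in Sham.

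**Figure D4:**
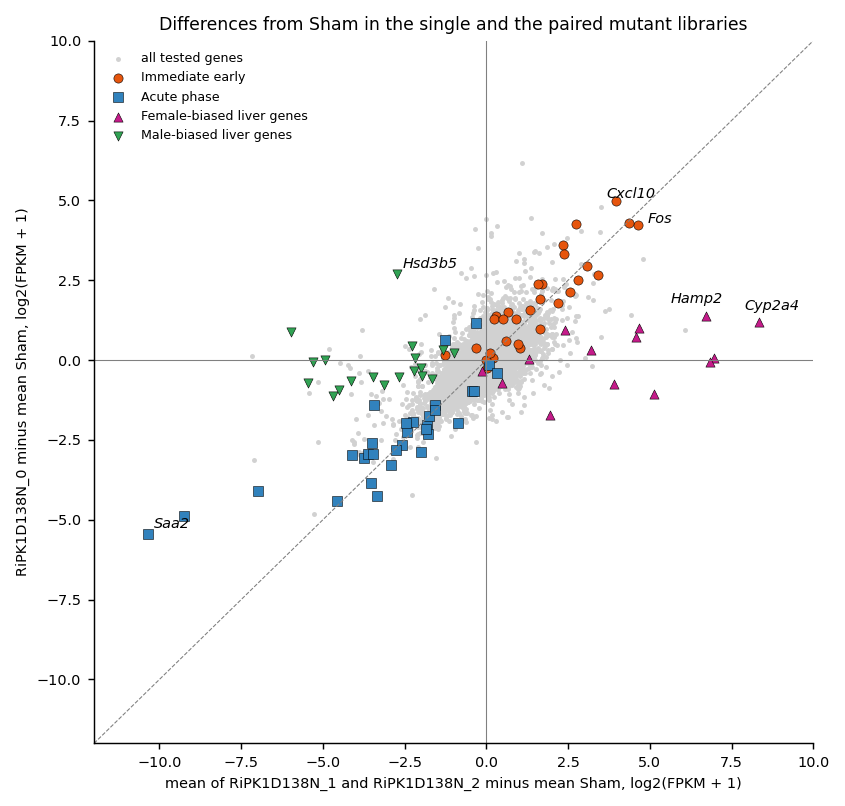
Each tested gene by its difference from mean Sham in the 2 Xist-positive mutant libraries (x axis, their mean) and in RiPK1D138N_0 (y axis), both in log2(FPKM + 1) units, without loci listed at 0; colours mark 4 gene lists, the dashed line marks equal differences. Fos lies near the dashed line, at 4.23 in RiPK1D138N_0 and at 4.64 and 4.66 in RiPK1D138N_1 and RiPK1D138N_2. Saa2 is low on both axes but far from the dashed line, at -5.44 and at -10.2 and -10.5 in the same order. The female- and male-biased genes spread along the x axis. Their medians on the y axis are 0.06 and, with loci listed at 0 counted, -0.25.

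Markers of other cells moved as well, and in bulk liver fewer cells of a type and less RNA per cell cannot be told apart. Markers of Kupffer cells, the liver's resident macrophages, and of other macrophages fell in 9 of 13 tested cases, with 0 rises (median -1.42; library medians -1.62, -1.29 and -1.39), also 9 with RiPK1D138N_0 alone, and 9 fell in WT. Their summed level was 211, 193 and 126 FPKM in Sham and 71.5, 71.8 and 66.4 FPKM in the mutant. Clec4f, the C-type lectin that defines Kupffer cells, read 29.6, 23.3 and 14.4 FPKM in Sham and 2.85, 5.54 and 4.29 FPKM in the mutant libraries (log2 difference -2.14, SE 0.25, adjusted p = 0.000111 by limma), and C1qa, a complement subunit made by macrophages, 32.6, 32.4 and 27.1 FPKM in Sham and 7.17, 6.53 and 7.25 FPKM in the mutant libraries. In both, all mutant values were below all Sham values. Cd68, a lysosomal protein of macrophages, was not called, at 2.71, 2.23 and 2.14 FPKM in Sham and 1.74, 1.3 and 1.13 FPKM in the mutant libraries, while WT reached 49.6 ± 9.98 FPKM. Cd14, the lipopolysaccharide co-receptor, read 3.65, 3.69 and 2.46 FPKM in Sham and 8.53, 2.31 and 2.47 FPKM in the mutant libraries, with RiPK1D138N_0 above the Sham range and WT at 185 ± 62.8 FPKM.

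Erythroid markers rose in 4 of 5 cases, also 4 with RiPK1D138N_0 alone, with a summed level of 269, 317 and 166 FPKM in Sham and 1767, 890.1 and 1016 FPKM in the mutant. Hbb-bs, an adult β-globin, read 142, 164 and 50.1 FPKM in Sham and 1239, 492 and 605 FPKM in the mutant libraries, highest in RiPK1D138N_0 and above Sham throughout. Of 3 tested platelet markers 1 was called higher than Sham and 0 lower, and in 1 all mutant values lay above all Sham values. The 2 that were not called, Ppbp and Pf4, were high in RiPK1D138N_0 alone among the 6 libraries: Ppbp read 0.511, 0.387 and 0.386 FPKM in Sham and 21.7, 0.225 and 1 FPKM in the mutant libraries and Pf4 read 1.71, 1.1 and 3.24 FPKM in Sham and 32.1, 1.7 and 1.17 FPKM in the mutant libraries (adjusted p = 0.168 and 0.327 by limma). That library also held the highest Ccl2, Cxcl2 and Ier3, and the part of blood cells in those values was not tested. By limma 0 of 8 neutrophil markers were called higher and 0 lower (0 and 0 at an unadjusted p under 0.05). Their summed level was 86.6, 51.7 and 39.9 FPKM in Sham and 144, 234 and 5.01 FPKM in the mutant. S100a8 read 25.5, 17 and 9.52 FPKM in Sham and 33.1, 66.8 and 1.37 FPKM in the mutant libraries, so that the mutant libraries lay on both sides of Sham. Stellate cell and fibroblast markers rose in 13 of 18 cases (median 0.95; library medians 0.51, 1.13 and 1.22). The median was lowest in RiPK1D138N_0, so the rise was larger in the 2 Xist-positive libraries. Without RiPK1D138N_0 15 members rose. Lum, the collagen-binding protein lumican, read 1.8, 1.3 and 1.08 FPKM in Sham and 4.91, 5.94 and 6.85 FPKM in the mutant libraries and Col3a1, a fibrillar collagen, 0.554, 0.805 and 0.712 FPKM in Sham and 2.97, 8.8 and 11.8 FPKM in the mutant libraries. Of 20 sinusoidal endothelial markers 3 rose, with library medians of -0.59, 0.99 and 0.72, and of 7 cholangiocyte markers 3 rose. The cytoskeleton and matrix lists above hold genes of these cells, and how far cell content bears on their counts was not tested.

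Among the largest falls whose difference from WT was bounded within 1 log2 unit were those of Moxd1, Abhd1 and Nlrp12. Moxd1, a monooxygenase-like protein, read 30.02, 49.7 and 35.7 FPKM in Sham and 0.365, 0 and 0 FPKM in the mutant libraries (log2 difference -5.12, SE 0.212, adjusted p = 5.99e-09 by limma), so it was listed at 0 in both Xist-positive libraries and near 0 in the third. Abhd1, a hydrolase-like protein, read 14.8, 15.5 and 16.2 FPKM in Sham and 0.823, 0.522 and 0.461 FPKM in the mutant libraries, with WT at 0.486 ± 0.197 FPKM, and Nlrp12, an inhibitory NOD-like receptor, read 38.1, 34.5 and 31.1 FPKM in Sham and 7.73, 1.79 and 2.78 FPKM in the mutant libraries, with WT at 3.03 ± 0.573 FPKM. Serpina10, which inhibits coagulation factor Xa, read 735, 402 and 662 FPKM in Sham and 117, 85.8 and 83.8 FPKM in the mutant libraries, and Fgl1, a fibrinogen-like hepatokine, 1487, 1400 and 1469 FPKM in Sham and 198, 346 and 379 FPKM in the mutant libraries. For these 5 genes all mutant values lay below all Sham values, and the 95% interval of mutant minus WT lay within 1 log2 unit of 0. Genes that WT raised by at least 2 log2 units and that stood near Sham in the mutant included Npy, Slc16a3 and Hmga1. Npy, a neuropeptide, is listed at 0 in all 3 Sham libraries and read 0.122, 0.113 and 0 FPKM in the mutant and 23 ± 5.88 FPKM in WT. Slc16a3, the lactate exporter MCT4, read 0.196, 0.324 and 0.383 FPKM in Sham and 1.33, 0.589 and 0.147 FPKM in the mutant libraries against 21.4 ± 0.741 FPKM in WT, and Hmga1, a chromatin protein, 2.78, 5.24 and 3.13 FPKM in Sham and 7.51, 4.52 and 3.06 FPKM in the mutant libraries against 78.1 ± 7.46 FPKM. Esm1, an endothelial proteoglycan, read 0.233, 0 and 0.0884 FPKM in Sham and 0.0447, 0.658 and 0.0537 FPKM in the mutant libraries against 16.4 ± 3.96 FPKM in WT. The mutant libraries overlapped the Sham range for Hmga1, Slc16a3 and Esm1, and for these 3 genes and Npy all mutant values lay below all WT values.

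**Figure D5:**
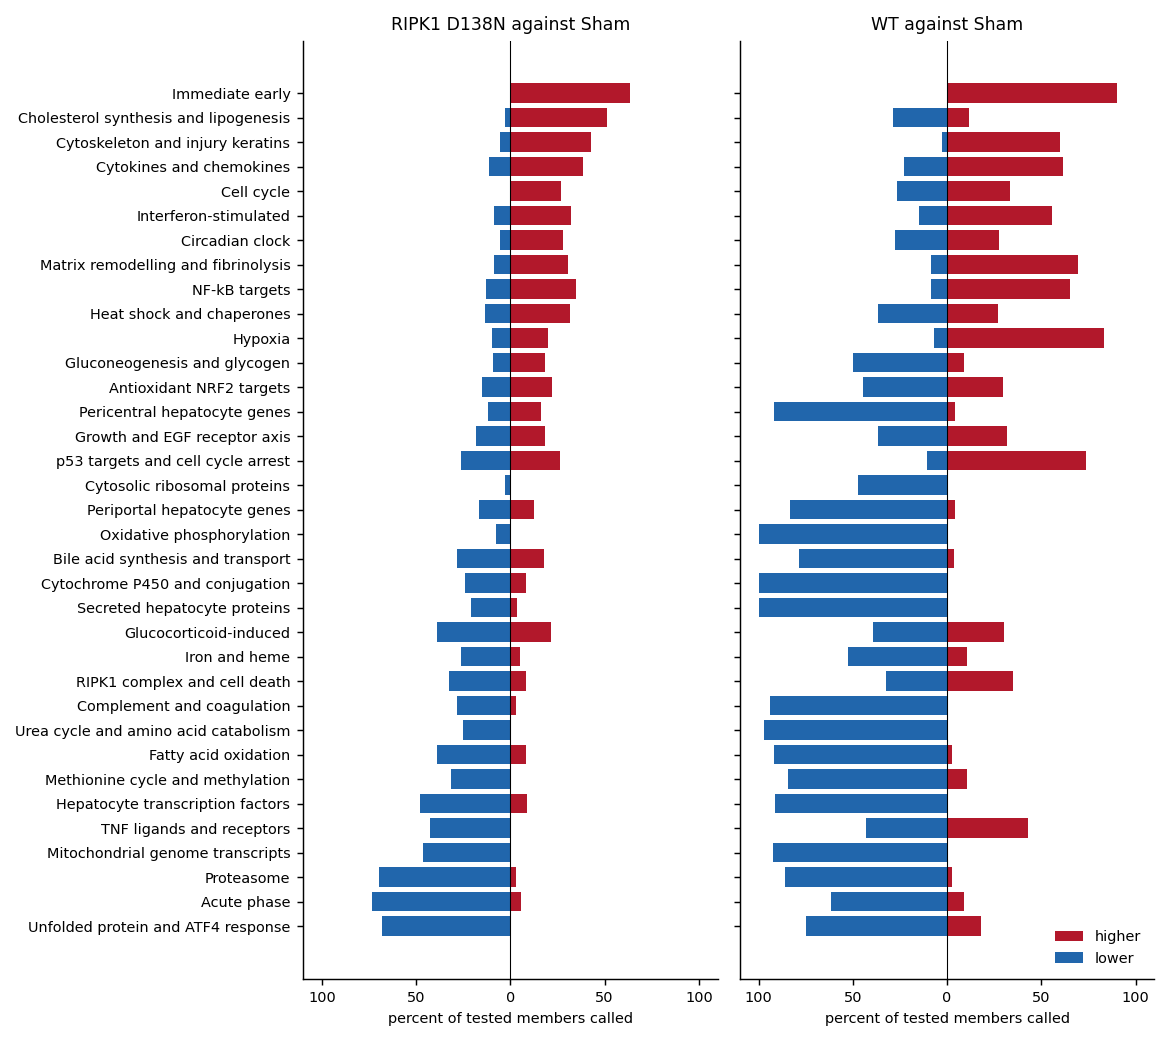
Share of the tested members of each list (y axis) called higher (red) or lower (blue) than Sham by limma at an adjusted p under 0.05 (x axis, percent), in the mutant (left) and in WT (right); both panels use the same Sham libraries and include the loci listed at 0. On the deposited scale, oxidative phosphorylation is called lower for 3 of 38 members on the left and 38 of 38 on the right. Immediate early genes are called higher for 19 and 27 of 30.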

How the data were processed

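RNA was extracted from liver with Trizol and made into libraries with a NEB RNA Ultra kit, per the labels' protocols. The authors deposited 1 table of FPKM per gene for all 12 libraries. The submitters' processing notes name STAR 2.5.4a, Cufflinks 2.2.1, Cuffdiff and mm10, and the annotation and strand setting are not given in the sources used here. Without counts no count model was used. Values were tested as log2(FPKM + 1) with limma 3.58.1 in R 4.3.3 (trended moderation, 4 group means, 12 libraries, Benjamini-Hochberg adjustment), keeping genes that reached 1 FPKM in 3 or more libraries. Intervals are 95%, for single genes and unadjusted. The procedure was tested on simulated data. Alternatives changed the pseudocount, the filter, the scaling, the libraries and the moderation. Genes were named from the largest called differences without overlap (12 each way), the 8 leading genes each way that lay close to WT, beyond WT or at Sham, and 4 a list each way. Other list members were picked as examples after their values were seen. Members and lists were chosen with earlier results of these data known. Promoters came from RefSeq (GRCm38.p6).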

Additional observations from a re-analysis of the deposited data

Results flagged for a closer look

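Hsd3b5 and Cyp2b13 lay on opposite sides of Sham in the Xist-negative and the Xist-positive mutant libraries. Hsd3b5, a steroid dehydrogenase that is male-biased in mouse liver, differed from mean Sham by 2.71, -2.57 and -2.89 log2 units in RiPK1D138N_0, RiPK1D138N_1 and RiPK1D138N_2. Cyp2b13, a female-biased P450, differed by -1.07, 5.25 and 5.03 log2 units in the same order. With 1 library on one side, the difference was not tested.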

How the results depend on the processing

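Without the Xist-positive mutant libraries, 300 genes were higher and 738 lower than Sham, 22 of the 100 calls among genes named here were lost, and the log2 difference changed sign for C6 (0.0087) and Hsd3b5 (2.71). With 1 library left out at a time the counts for mutant against Sham ranged over 529 to 1104 higher and 1720 to 2528 lower. The lowest count of higher genes came without RiPK1D138N_2 (529), which also gave the lowest count of lower genes (1720), and leaving out RiPK1D138N_1 gave 581 higher genes. For WT against Sham the ranges were 1613 to 2010 and 4393 to 4685, and for mutant against WT 2991 to 3359 and 2001 to 2784; leaving out WT libraries was chosen after seeing the data. Under median-of-ratios scaling the mutant had 1404 higher and 1235 lower genes and WT 3169 and 3185. Rescaled to a common sum, the counts were 1831 and 671 for mutant against Sham, 6236 and 1183 for WT against Sham, and 1677 and 5644 for mutant against WT. Quantile normalization gave 1347 lower genes in the mutant, and 2936 higher and 3164 lower in WT. A filter of 5 FPKM tests fewer genes and left 504 higher in the mutant, 881 higher in WT and 1352 lower in mutant against WT. For the other changes the cause was not tested. The other pseudocounts, the absence of a filter, moderation without trend, loci listed at 0 left out, and a fit of the 6 libraries alone kept every count they were run for within 1.5 times. At an unadjusted p under 0.05, 1265 genes were higher and 3708 lower in the mutant. No paired analysis was possible because the Sham and WT columns could be matched to their group but not to a numbered sample, so the fit with a replicate block was not run. Absolute depth is unknown, so no counting interval is given.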
